A study of Homo sapiens with 6 samples.

Results

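The comparison set the array of MDA-MB-231 cells treated with TNFa against the mean of the arrays treated with LPS and with IL1b, to ask where the response to TNFa differs from what the other 2 NF-kB stimuli have in common. The 3 arrays come from a series of 6, with 1 array each for PBS (the control), LPS, IL1b, TNFa, IL6 and TGFb, all treated for 24 h. The series was set up as a search for long non-coding RNAs that react to inflammation. MDA-MB-231 is a human breast cancer cell line of mesenchymal, basal type. It is a single line, and each treatment has 1 RNA sample on 1 array, so the differences could not be tested against replicate error and carry no p-value. A probe was taken as measured when every spot of it used was well above background on the TNFa, LPS and IL1b arrays. Of 60596 probes, 23537 met this, and 293 of these carry a name in the files out of 1365 named probes. The remaining measured probes carry only a number. All levels are quantile-normalized intensities on the log2 scale, and a difference is TNFa minus the mean of LPS and IL1b unless stated otherwise. The gap between LPS and IL1b on the same probe gives the scale of spread. A probe was called when its difference was at least 1 (2-fold) and larger than that gap.

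TNFa is a cytokine that binds its own receptors, which recruit TRADD, RIPK1 and TRAF2. LPS (bacterial lipopolysaccharide) acts through TLR4, and IL1b through the interleukin-1 receptor. Both of these receptors use the adaptor MYD88, the IRAK kinases and TRAF6. The routes meet at the IKK complex, which frees NF-kB to enter the nucleus. The named probes were not drawn from this pathway. They are exons, introns and non-coding transcripts (nc-HOX) of the HOX clusters, which hold developmental transcription factor genes; ultraconserved regions (uc. probes, with a + or - sign for the strand), which are stretches of genome identical between human and rodents; a set of mRNAs spotted repeatedly; and a few other transcripts. Of the lists drawn up for this comparison, 0 of 12 genes of TNF receptor signalling, 0 of 13 of TLR4 and IL1 receptor signalling, 0 of 10 shared NF-kB genes and 0 of 13 NF-kB targets are named on the array. Nor are any of 4 markers of this line, 6 luminal or 4 leukocyte markers, so cell identity was not checked here. The files do not give the sequence of any probe, and none is printed.

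Signal well above background was found in 43.5% of probes with TNFa, 40.7% with LPS and 49% with IL1b, beside 33.2% with PBS, 68.3% with IL6 and 56.3% with TGFb. At the edge of the rule, 1 of the dimmest named probes kept was PRAC1 exon 1 (NM_032391), at 5.96 with LPS, 5.43 with IL1b and 5.92 with TNFa. Just outside it, uc.456+ lay at 5.83 with LPS, 6.73 with IL1b and 7.07 with TNFa and was not well above background with LPS. Of the 37 named probes measured on 2 of the 3 arrays, 28 missed the rule on LPS, 8 on TNFa and 1 on IL1b.

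Among the named probes measured, 3 were higher with TNFa and 0 were lower. That is 1.02% of 293, the same share as over all measured probes, where 0.667% were called higher, 0.353% lower and 1.02% either way. The named probes were called at the share of the background. The 3 are the ultraconserved probes uc.204- and uc.258+ and the non-coding transcript nc-HOXA13-100 of the HOXA cluster. Each is 1 spot per array. In RNA from whole cultures, a change in the number of cells that hold a transcript and a change in RNA per cell cannot be told apart.

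The probe uc.204- lay at 8.42 with TNFa, 7.28 with LPS, 6.90 with IL1b, 7.51 with PBS, 9.59 with IL6 and 6.44 with TGFb. TNFa stood above both comparison arrays and above PBS, and only the IL6 array was brighter. The difference was 1.33, or 2.51-fold, against a gap of 0.38. It was the only named probe at least 2-fold off LPS and at least 2-fold off IL1b at once, by 1.14 and 1.52.

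The probe nc-HOXA13-100 lay at 9.80 with TNFa, 9.09 with IL1b, 7.79 with LPS, 9.58 with PBS, 11.31 with IL6 and 7.28 with TGFb. Its difference of 1.37 (2.58-fold) was the highest of any named probe, and it only just exceeded a gap of 1.30. LPS was the low array here. TNFa was 2.02 above LPS but 0.71 above IL1b, and it lay 0.22 above PBS, so the call rests mainly on the LPS array.

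The probe uc.258+ lay at 7.78 with TNFa, 6.88 with LPS, 6.62 with IL1b, 9.79 with IL6 and 8.98 with TGFb, and it was not well above background with PBS. The difference was 1.03 (2.04-fold), just inside the threshold, against a gap of 0.26. It was 0.90 above LPS and 1.15 above IL1b. The opposite strand of the same region, uc.258-, differed by 0.09, with a gap of 1.06.

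**Figure D1:**
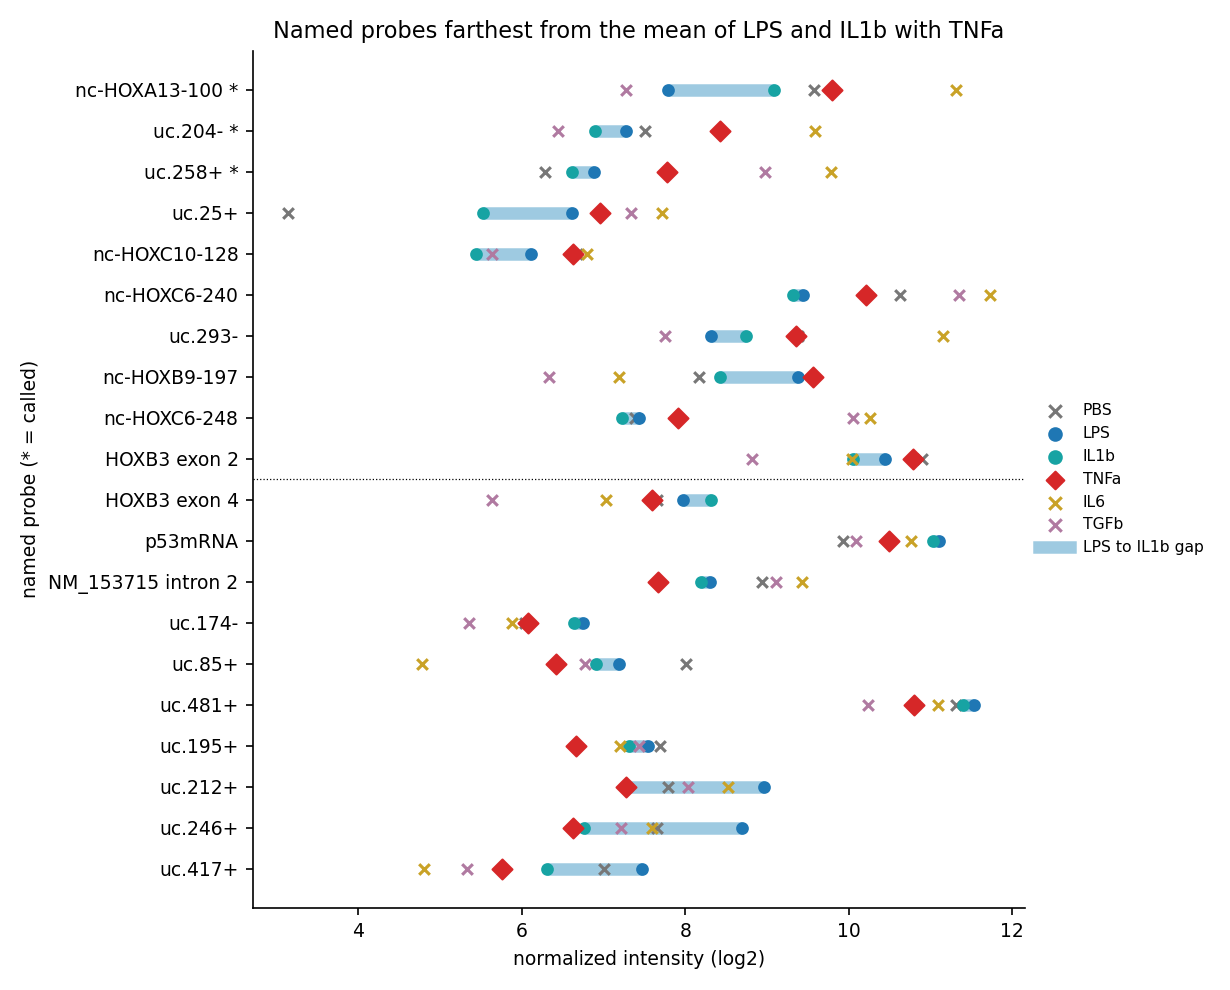
Normalized log2 intensity on all 6 arrays (horizontal axis) for 20 named probes, the 10 reported ones farthest above and the 10 farthest below the mean of LPS and IL1b with TNFa. The pale bar spans LPS to IL1b and a star marks a called probe. The TNFa diamonds of uc.204- (8.42) and uc.258+ (7.78) stand well outside the bar, while for uc.246+ and uc.212+ TNFa lies beside IL1b and LPS is the array that stands off. The PBS value of uc.25+ (3.14) is not well above background.

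Several named probes came close to the threshold on the higher side. The difference was 0.89 for uc.25+, with a larger gap of 1.09. It was 0.85 for nc-HOXC10-128 (gap 0.67), 0.83 for nc-HOXC6-240 (gap 0.12) and 0.82 for uc.293- (gap 0.44). For nc-HOXC6-240 the levels were 10.21 with TNFa, 9.44 with LPS and 9.32 with IL1b, so that the comparison arrays agreed closely and TNFa stood clear of both. PBS (10.63), IL6 (11.73) and TGFb (11.35) were all brighter than TNFa on this probe.

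On the lower side, uc.417+ (-1.13) and uc.246+ (-1.09) passed 2-fold but not their gaps of 1.15 and 1.94. On uc.246+ the levels were 8.70 with LPS, 6.76 with IL1b and 6.63 with TNFa. TNFa and IL1b lay together and LPS alone was high. The same held for uc.212+, at 8.97 with LPS, 7.30 with IL1b and 7.28 with TNFa. The lower probes on which LPS and IL1b lay close together were uc.195+ (-0.77, gap 0.23), uc.481+ (-0.67, gap 0.14), uc.85+ (-0.64, gap 0.27) and uc.174- (-0.62, gap 0.11). On uc.195+ TNFa, at 6.66, was the dimmest of the 6 arrays, which otherwise ran from 7.20 to 7.69.

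The mRNAs spotted repeatedly are the only probes with a measured technical error. Each has 10 spots per array, of which 7 to 10 were used on these 3 arrays, and 18 of 20 mRNAs were measured. The standard error (SE) over spots covers spot noise within an array alone and says nothing of a second culture. For 15 of the 18, the difference was under 0.2 either way. None was called.

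H3-3A (NM_002107), which encodes the replication-independent histone H3.3, had TNFa below both comparison arrays. It lay at 13.89 with TNFa, 14.30 with LPS, 14.31 with IL1b, 13.70 with PBS, 13.98 with IL6 and 13.74 with TGFb. No TNFa spot reached the range of the LPS or IL1b spots. The difference was -0.42 with an SE over spots of 0.0165.

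PGK1 (NM_000291), a glycolytic enzyme, went the other way. Its level was 9.94 with TNFa, 9.72 with LPS, 9.66 with IL1b, 9.94 with PBS, 9.24 with IL6 and 9.40 with TGFb. The lowest TNFa spot (9.86) lay above the highest LPS (9.77) and IL1b (9.74) spots. The difference was 0.25 with an SE over spots of 0.0204.

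PRMT1 (NM_001536), the main arginine methyltransferase of histone H4 and many RNA-binding proteins, lay at 12.62 with TNFa, 12.60 with IL1b, 12.36 with LPS and 11.27 with PBS. TNFa and IL1b differed by 0.02, and LPS was the lower array. The dynein light chain DYNLL1 (-0.18), the mitochondrial import protein MTX1 (-0.13) and the translation initiation factor subunit EIF3D (-0.09) lay slightly lower with TNFa. MTX1 differed more between LPS and IL1b (0.25) than TNFa did from their mean. Of the housekeeping list, 3 of 6 genes were measured, and beside PGK1 they were ACTB (-0.02), a cytoskeletal actin, and GAPDH (0.03), a glycolytic enzyme. Of the ribosome list, 2 of 6 were measured, RPS18 (-0.07) and RPLP1 (-0.04). Others were ACTG1 (-0.06), the actin-binding PFN1 (-0.06), the ribosome-bound RACK1 (-0.04), ODC1 of polyamine synthesis (0.00), the respiratory chain subunit COX4I1 (0.02) and ARHGDIA (0.02). GRM4, a glutamate receptor, had 0 of 10 spots well above background on each of the 3 arrays. RPL10 had 2 of 10 with TNFa, 9 of 10 with IL1b and 0 of 10 with LPS.

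**Figure D2:**
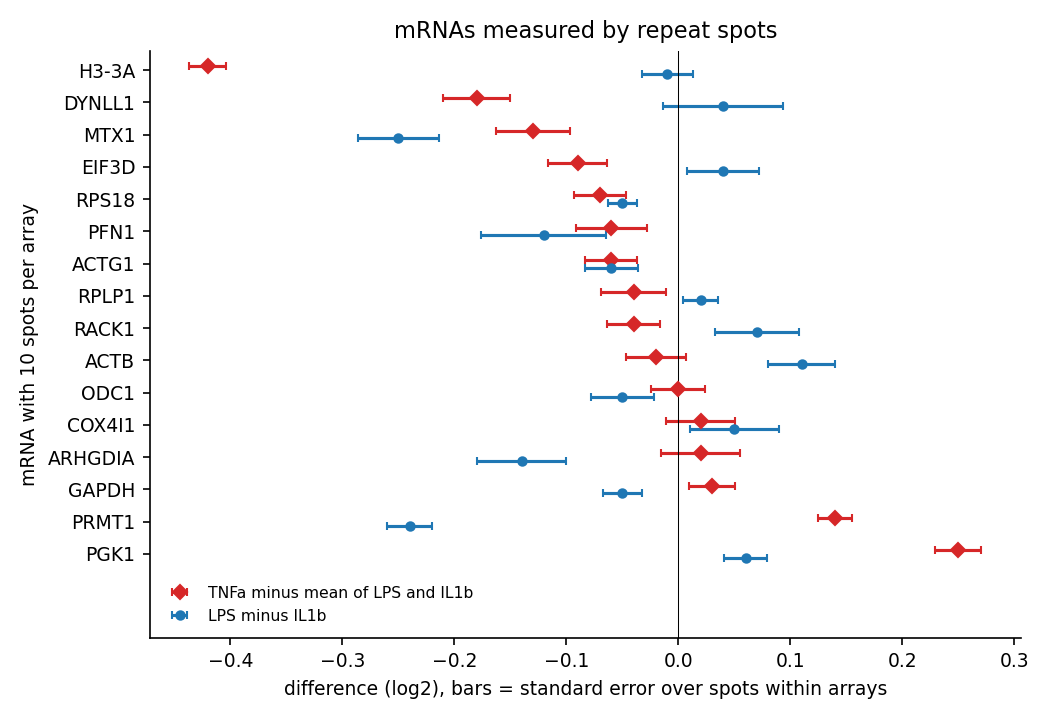
Difference of TNFa from the mean of LPS and IL1b (diamonds) and of LPS from IL1b (circles), in log2, for 16 mRNAs with repeat spots, with bars for the standard error over spots within arrays. H3-3A (-0.42) lies apart on the left and PGK1 (0.25) on the right, each with LPS and IL1b within 0.06 of each other.

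Of the exon probes of the HOX clusters, 30 of 93 were measured and 0 were called in either direction. Their differences ran from -0.55 to 0.54 with a median of -0.08, beside -0.01 over all measured probes. HOXB9 exon 2 (NM_024017) differed by -0.55, at 8.00 with TNFa, 8.64 with LPS and 8.46 with IL1b. HOXB3 exon 4 (NM_002146) also differed by -0.55, at 7.59 with TNFa, 7.97 with LPS and 8.31 with IL1b. HOXB3 exon 2 of the same transcript differed by 0.54, the highest of the exons, at 10.79 with TNFa, 10.45 with LPS and 10.05 with IL1b. Both probes thus lay outside the LPS to IL1b range, on opposite sides of it, and the intron 2 probe of HOXB3 differed by 0.20. HOXD1 exon 1 (0.51) and HOXD8 exon 1 (0.24) were also on the higher side, and HOXC6 exon 2 (-0.40) and HOXC8 exon 2 (-0.35) on the lower.

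Of 8 HOX genes with at least 2 measured exon or intron probes, 5 had probes on both sides of 0. Both probes of HOXB7 (-0.12 and -0.04) and of HOXC8 (-0.35 and -0.10) lay below 0. HOXD1 had 0.51 on exon 1 and -0.11 on exon 2.

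By cluster, the 7 exon probes of HOXC were the only exon or nc-HOX group on 1 side throughout. All 7 lay below 0, with a median of -0.19 and a range of -0.40 to -0.10, beside 12263 of all 23537 measured probes below 0. TNFa was below both LPS and IL1b on 5 of the 7, beside 38.8% of all measured probes. Only 3 of the 7 differences exceeded the gap of their own probe. Over the scalings tried, the median of these exons ran from -0.28 to -0.16, beside -0.06 to 0.03 over all measured probes. None of the 7 turned positive. The median was -0.37 against LPS and -0.11 against IL1b, and LPS lay above IL1b on these exons by a median of 0.17. The non-coding HOXC transcripts leaned the other way, with 22 of 32 above 0, beside 11273 of all 23537 measured probes. Over the scalings the counts ran from 20 to 27, beside 9787 to 12735 of all measured probes. The median of these transcripts was 0.12 (0.08 to 0.17 over the scalings). Their median was 0.21 against IL1b and -0.03 against LPS. The lean was not particular to HOXC, since 12 of 16 nc-HOXA probes lay above 0. The counts were 10 of 23 for nc-HOXB and 7 of 16 for nc-HOXD.

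Of 212 nc-HOX probes, which lie between and within the HOX genes, 87 were measured. Beside nc-HOXA13-100, 0 were called. The range was -0.44 to 1.37 and the median 0.05, with 51 above and 36 below 0. TNFa stood above both LPS and IL1b on 38 of the 87 (43.7%) and below both on 17 (19.5%), beside 31.2% and 38.8% over all measured probes. The median became -0.004 when arrays were scaled to the 75th percentile of all probes, so the direction of the median depends on the scaling. After nc-HOXA13-100, nc-HOXC10-128 and nc-HOXC6-240, the highest was nc-HOXB9-197 (0.65), where LPS (9.38) lay near TNFa (9.56) and IL1b (8.43) stood off. The lowest were nc-HOXC11-110 (-0.44), nc-HOXB4-175 (-0.40), nc-HOXA9-81 (-0.37) and nc-HOXC6-246 (-0.25). The neighbours of nc-HOXA13-100 in the series of probe numbers, nc-HOXA13-97 and nc-HOXA13-98, differed by 0.04 and 0.18.

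Intron probes gave 10 measured of 53, none called, with a median of -0.19 that ran from -0.20 to -0.10 over the scalings. The lowest was intron 2 of NM_153715, at 7.67 with TNFa, 8.30 with LPS and 8.19 with IL1b, a difference of -0.58. TNFa was the dimmest of the 6 arrays on this probe. Intron 2 of HOXA6 (-0.33) and intron 3 of HOXB6 (-0.29) followed. Intron 3 of HOXC4 (0.32) and intron 2 of HOXB3 (0.20) lay on the higher side.

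**Figure D3:**
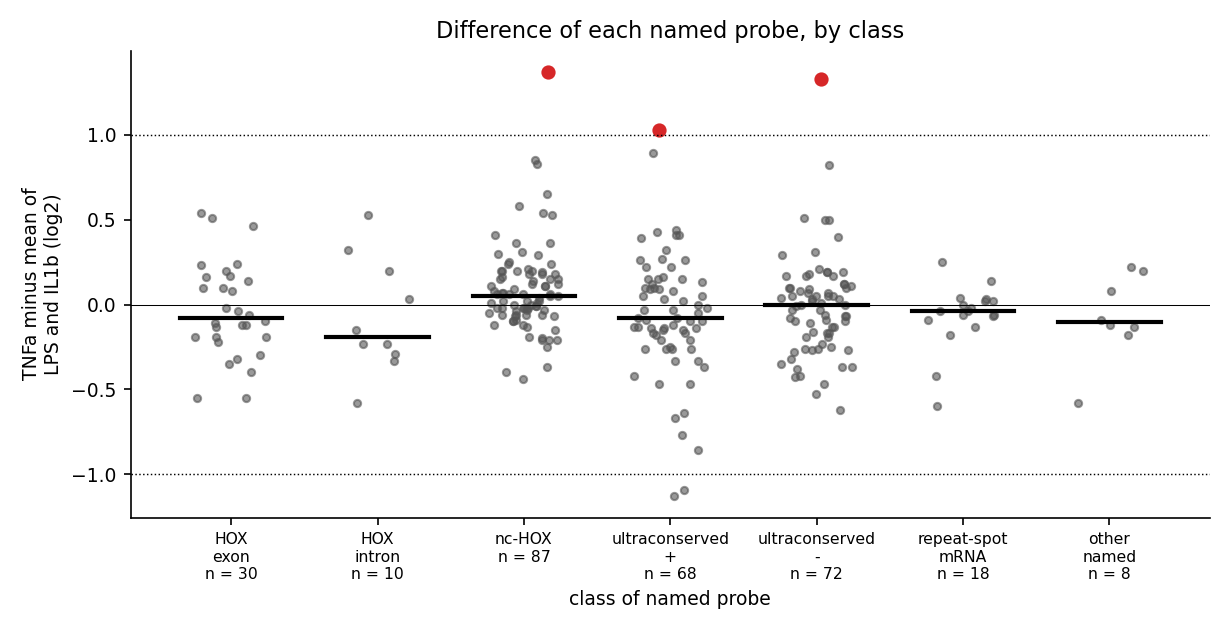
Difference of TNFa from the mean of LPS and IL1b (log2, vertical axis) for each of the 293 named measured probes by class, with the class median as a bar and the 3 called probes as large points. Dotted lines mark 2-fold. The medians lie between -0.19 (HOX introns) and 0.05 (nc-HOX).

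The ultraconserved regions gave 140 measured of 961 probes, 68 on the + and 72 on the - strand. Beside uc.204- and uc.258+, 0 were called. Differences ran from -1.13 to 1.33 with a median of -0.03, and the sign of that median turned to 0.03 under scaling to the 75th percentile of probes detected on all arrays. The highest after those already described were uc.345- (0.51), uc.341- (0.50), uc.483- (0.50), uc.285+ (0.44) and uc.419+ (0.43). On the - strand, the lowest after uc.174- were uc.188- (-0.53), uc.185- (-0.47) and uc.45- (-0.43).

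Both strands were measured in 14 regions. By the sign of the difference alone, the 2 strands went in the same direction in 8 of these and in opposite directions in 6. Some of these signs rest on small differences, as on uc.472 (-0.05 and 0.05). Some strands, such as uc.258-, lay between LPS and IL1b. On uc.174 the + strand differed by 0.39, at 9.51 with TNFa, 8.92 with LPS and 9.33 with IL1b, and the - strand by -0.62, at 6.08, 6.75 and 6.64. TNFa was above both on the + strand and below both on the - strand, but the + strand difference was smaller than its gap of 0.41. On uc.195 the difference was -0.77 on the + strand and 0.17 on the - strand, and on uc.418 it was -0.47 and 0.21. On uc.293 the - strand carried the difference (0.82, against 0.02 on the + strand), and on uc.258 the + strand did. On uc.246 the + strand differed by -1.09 and the - strand by -0.10. The + strand value was smaller than its gap of 1.94, since LPS alone was high there.

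Of 26 other named transcripts, 8 were measured and 0 were called. The probe named p53mRNA had the largest difference, -0.58 against a gap of 0.06. It lay at 10.50 with TNFa, 11.11 with LPS, 11.04 with IL1b, 9.93 with PBS, 10.77 with IL6 and 10.09 with TGFb, so TNFa was between PBS and the other 2 stimuli. Of a list of 5 nuclear long non-coding RNAs, 1 was measured. This was TncRNA, a transcript of the NEAT1 locus, and it lay at 13.31 with TNFa, 13.52 with LPS and 13.38 with IL1b, beside 11.96 with PBS. Its difference of -0.13 was smaller than its gap of 0.14. The cytoplasmic small RNA mascRNA, cut from the end of MALAT1, differed by -0.12, Alpha250 by -0.18 and AY195961 by 0.20. HOTAIRM1 and lincRNA-p21 were not well above background on any of the 6 arrays.

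Outside the rule, 14 of 1365 named probes were well above background with TNFa and with neither LPS nor IL1b. Another 8 were so with both of these and not with TNFa. Over all 60596 probes the counts were 693 and 582, so neither share of the named probes was above that of all probes. Such a probe has only a bound. It sets the bright mean against the mean over the dim arrays of the higher of the probe's own level and the lowest level well above background there, and the bound is not strict, since some probes above that lowest level were not well above background. The probe uc.89+ lay at 8.87 with TNFa, at least 9.95-fold higher than with LPS and IL1b. On the other 5 arrays it was not well above background, and its values there (2.93 to 3.14) equal those of other undetected probes such as HOTAIRM1. It is 1 spot per array, so the bound rests on a single TNFa spot. The probe uc.21- lay at 7.49 with TNFa, at least 3.81-fold higher. The others of the 14 had bounds of 1.95-fold or less. On the opposite side, uc.368+ lay at 7.56 with LPS and 7.89 with IL1b and at 3.56 with TNFa, at least 4.55-fold lower with TNFa. On uc.394+ the bound was 6.37-fold, but IL1b (9.66) and LPS (6.97) differed there by as much.

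Over all 23537 measured probes, 157 were called higher and 83 lower, and 154 and 83 of these carry only a number. The LPS to IL1b gap itself passed 2-fold in 305 measured probes, or 1.3%. The TNFa difference passed 2-fold in 263 before the gap condition and in 240 after it. Farther out the counts of measured probes separated by direction. At 4-fold, with the gap condition kept, 27 measured probes were higher with TNFa and 1 was lower. With no such condition on the gap itself, LPS was above IL1b in 16 and IL1b above LPS in 5. At a log2 difference of 3 the counts were 6 and 0 with TNFa, and 0 and 1 between LPS and IL1b. A probe lost to background with TNFa, or with LPS or IL1b, enters none of these counts. Signal was lost with TNFa alone of the 3 arrays in 582 probes, and found with TNFa alone in 693. The 4-fold split with such probes included was not tested.

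The numbered probe with the highest difference, ASHG19A3A014218, lay at 12.92 with TNFa, 8.99 with LPS, 9.33 with IL1b, 9.18 with PBS, 8.31 with IL6 and 7.85 with TGFb. It was well above background on all 6 arrays, 13.6-fold above the mean of LPS and IL1b, and 3.59 above the next brightest array. ASHG19A3A017059 had the same difference of 3.76, at 10.05 with TNFa, 6.40 with LPS and 6.18 with IL1b. The lowest was ASHG19A3L0002552, at 6.88 with TNFa, 8.40 with LPS and 9.37 with IL1b, followed by ASHG19A3L0003067 (-1.75). No table used here gives a gene for these numbers.

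Of the 157 higher probes, TNFa was the brightest of all 6 arrays in 115 and stood at least 2-fold above each of the other 5 in 40. Of the 27 past 4-fold, 19 did so. Of the 83 lower probes, TNFa was the dimmest of 6 in 22 and at least 2-fold below each of the others in 1. Over all 23537 measured probes, TNFa was the brightest in 3161 and the dimmest in 2231. The rule already picks probes by TNFa against 2 of the other 5 arrays, so the counts among called probes follow in part from it. None of the 3 named probes called higher was brightest with TNFa, since IL6 was brighter on each.

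The spread over probes was then read against the level. The robust SD (scaled median absolute deviation) was 0.26 for the difference and 0.24 for the gap over all measured probes. Were the 3 arrays equally and independently noisy, the first would be 0.87 times the second. It was 0.92 times in the lowest decile of probes by level and 1.37 times in each of the upper 2 deciles. In the ninth decile, at levels of 11.03 to 12.73, the robust SDs were 0.27 and 0.19. The robust SD was 0.31 between TNFa and LPS and 0.26 between TNFa and IL1b. IL1b was the middle array of the 3 in 41.7% of measured probes, TNFa in 29.8% and LPS in 28.2%.

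**Figure D4:**
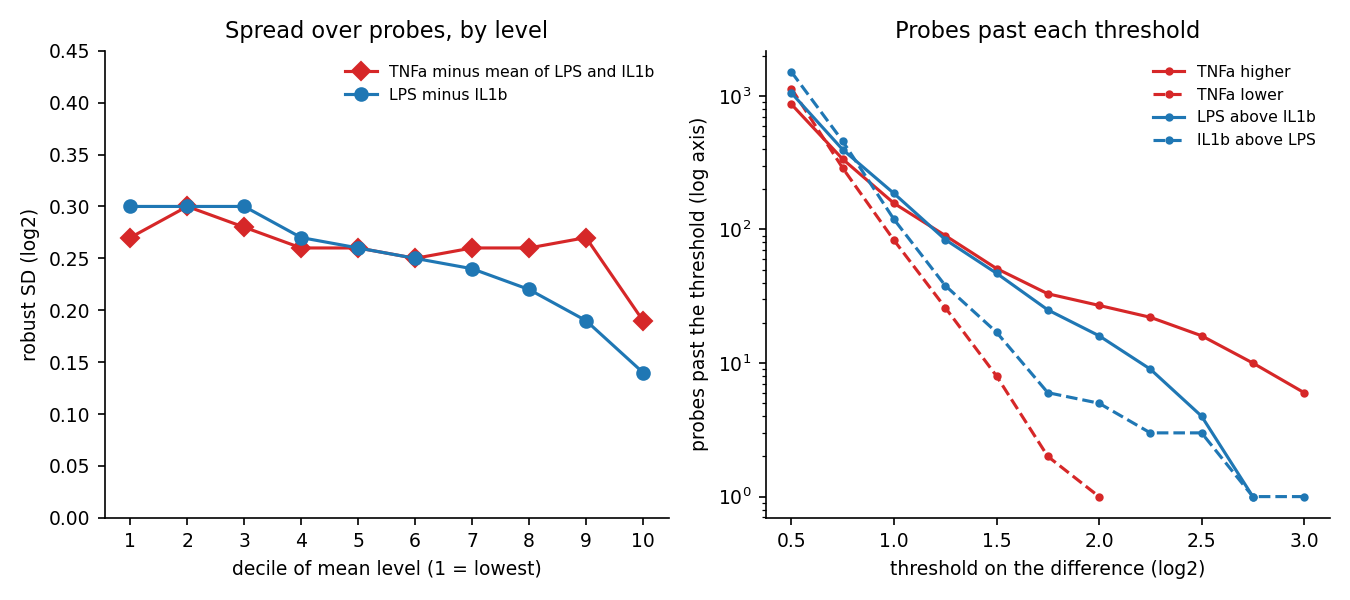
Left, robust SD over probes (log2) of the TNFa difference and of the LPS to IL1b gap in 10 bins of mean level. Right, number of measured probes past each threshold (log axis, zero counts not drawn). The TNFa counts also require the difference to exceed the gap, and the LPS to IL1b counts have no such condition. The TNFa difference and the gap are at 0.27 and 0.19 in the ninth bin and at 0.19 and 0.14 in the brightest, and the TNFa higher curve lies above the others from a log2 difference of 1.25 on.

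The arrays that did not enter the difference were then read on the called probes. IL6 and PBS differed at least 2-fold in 91 of the 157 higher probes (58.0%) and in 33 of the 83 lower probes (39.8%), beside 31.5% of all measured probes. TGFb and PBS differed in 100 (63.7%) and 47 (56.6%), beside 32.6%. Among the lower probes TGFb was below PBS in 42 (50.6%) and above it in 5 (6.02%), beside 18.2% and 14.4%. All 3 named called probes were at least 2-fold higher with IL6 than with PBS, beside 13.8% of all measured probes. PBS was well above background on 73.2% of the higher and 72.3% of the lower probes, beside 82.5% of all. Of the negative control spots, 12.83% were well above background with IL6, 11.17% with TGFb and 0.5% with PBS, and the part of this in the shares above was not tested.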

How the data were processed

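The deposited intensity values are the scanner software's processed signal per spot, per the file headers, whose columns are those of Agilent Feature Extraction. The labels describe a NimbleGen-format Arraystar array, and the conflict is not settled here. Other deposited columns are flags for outlier spots and for signal well above background. The authors' deposited series table holds log2 values, and the submitters' processing notes name RMA. It differed from the quantile-normalized scanner values by a median of at most 0.000624.

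Control spots and outlier spots were left out, and the log2 values of repeat spots were averaged by probe. This dropped 43 of 60639 probes, all of whose spots were outliers on at least 1 array. All 6 arrays were quantile normalized with limma 3.58.1 in R 4.3.3. The call needs a log2 difference of at least 1 that exceeds the LPS to IL1b gap. With 1 array per group no test was possible, and the number of arrays limits the precision. The rule was run on simulated arrays with the same normal noise on every probe. In these data the spread varies with the level, so that run gives no error rate for the calls here. RefSeq names (GRCh38.p14 table) matched 160 of 166 accession probes. Probes named are the called ones (up to 12 each way), the 4 farthest each way in a class, list genes, every repeat-spot mRNA, both strands of a named region, and at most 2 numbered probes each way; others are added to complete a comparison. Some probes that this rule names are not reported here, though they stay in the counts and medians. The probes, lists and comparison were chosen with earlier results of these data known. Alternatives were other scalings, the series table, outlier spots kept, other detection filters, other thresholds and a single comparator. The planned normexp background correction was not run, since the files used here lack its columns.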

Additional observations from a re-analysis of the deposited data

Results flagged for a closer look

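Negative control spots, which the comparisons do not use, were well above background more often on all 3 arrays than on the PBS array. They were well above background in 1.83% of 600 spots with TNFa, 1.83% with LPS and 2.33% with IL1b, beside 0.5% with PBS. The arrays set against each other thus had like shares, and whether this bears on the differences was not tested.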

How the results depend on the processing

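No paired analysis was possible because each treatment has 1 array. The same 3 named probes were called higher, and 0 lower, under both 75th percentile scalings, cyclic loess, quantile normalization of the 3 arrays alone, the series table and with outlier spots kept; counts over all measured probes ran from 157 to 217 higher and 75 to 109 lower there. With detection on all 6 arrays, 104 were higher and 59 lower, out of 19077 probes in place of 23537. With a mean level above the median of all probes in place of detection, 29585 probes were compared. Of these, 454 were higher and 295 lower, of them 6 and 4 named. At 1.5-fold, 610 were higher and 696 lower (6 and 5 named), so the excess of higher over lower turned; at 3-fold, 44 and 4, and at 4-fold, added after the data were seen, 27 and 1, with 0 named probes at either. Without the gap condition 2 named probes were lower, and with 2-fold asked against each array 52 probes were lower and 1 named probe higher. Against LPS alone, 280 were higher and 168 lower (3 named probes lower); against IL1b alone, 5 named probes were higher. None of the 3 named called differences changed sign under the scalings, the series table, outlier spots kept or either single comparator. The calls themselves did change. The probe uc.258+ was not called against LPS alone or with detection on all 6 arrays, and nc-HOXA13-100 was not called against IL1b alone. Only uc.204- was called in each of these settings. The numbered probes were not followed one by one. Normexp was not run.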
